A study of Mus musculus with 6 samples.

Results

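The 10 genes Acrv1, Spaca1, Spaca3, Spaca4, Spaca7, Zpbp, Zpbp2, Dpy19l2, Spata16 and Acrbp encode proteins that build the acrosome or fill it, and their messages were read in whole mouse testis after long ethanol feeding. They were taken by symbol from the 45777 genes of the expression table. All 10 were found in a single row each, all 10 are protein-coding, and all 10 passed the filter on low counts. Total RNA was sequenced from 3 testis libraries of ethanol-fed mice and 3 of control-fed mice, all of genotype WT. The mice were given 10 ml of an LDC liquid diet per day for 16 weeks, after 5 days of getting used to its control form. Total counts were 38935654 to 43399317 reads in the ethanol libraries and 43389811 to 47420249 in the control libraries. The labels give no strain or age, and leave unsaid whether each library is 1 mouse. The p-values therefore describe library-to-library spread, which may be technical.

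The acrosome is a secretory vesicle that caps the sperm nucleus. Round spermatids build it from Golgi vesicles that fuse, attach to the nuclear envelope and spread over it, and its matrix stores enzymes and zona-binding proteins until the sperm meets the egg. Among the 10 genes, Spata16 encodes a protein of the Golgi and the forming vesicle, and its loss in humans causes round-headed sperm that lack an acrosome. Dpy19l2 encodes a protein of the inner nuclear membrane that holds the acrosome to the nucleus, and its deletion is a common cause of the same human condition. Spaca1 encodes an acrosomal membrane protein that mouse sperm need for a normal head, and Spaca4 a membrane-anchored protein that mouse sperm need to get through the zona pellucida. The others encode proteins of the matrix or lumen. Zpbp and its paralog Zpbp2 encode zona pellucida binding proteins, Acrbp the protein that binds proacrosin and controls its storage, Spaca3 a lysozyme-like protein, Acrv1 the acrosomal vesicle antigen also called SP-10, and Spaca7 a protein released when the acrosome opens.

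No acrosome gene differed between the diets past the test. Of the 10 genes, 0 passed an adjusted p of 0.05 by edgeR's quasi-likelihood test, with a lowest adjusted p of 0.331, and 0 passed by DESeq2. Over all 25073 genes tested edgeR called 0% higher and 0% lower, with 7.45% higher and 5.89% lower at an unadjusted p under 0.05 (3343 genes, 13.3%), and DESeq2 called 203 higher and 127 lower. At an unadjusted p under 0.05 stood 1 of the 10, Spaca1. Differences were small: the largest of the 10 fitted changes was that of Spaca1, -12.8%, and the 95% intervals of the 10 fold changes, ethanol over control, lay between 0.719 and 1.16. Each gene had between 1890 reads, for Spaca4, and 18619 reads, for Spata16, in every library.

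The start of 4 of the 10 genes holds a cyclic AMP response element half-site within the 250 bases before it, and these stretches are shown because the element is the binding site of CREM, a known activator of genes in haploid germ cells. Capitals mark the half-site, TGACG or its reverse complement CGTCA, and each stretch of 30 bases is given 5′ to 3′ on the strand of the gene, from RefSeq on GRCm38.p6, the build mm10.
Spaca1, chr4:34050112-34050141, minus strand: aatggggTGACGcgcggTGACGcctcaatg
Spaca3, chr11:80858289-80858318, plus strand: cacaggtgatctTGACGaagttccgtgagt
Zpbp2, chr11:98550938-98550967, plus strand: gtttcctttactCGTCAcaccaccaggccg
Acrbp, chr6:125049897-125049926, plus strand: cctcaccttctgTGACGtagcagccgcgcc
The ends of the half-sites nearest the start of the gene lay 64 and 54 bases before it in Spaca1, 57 in Spaca3, 142 in Zpbp2 and 13 in Acrbp. The full palindrome TGACGTCA, which contains the half-site, was in 0 of the 10 windows. Of 32851 such windows of mouse genes, searched on both strands, 17.8% held the half-site and 1.55% the palindrome. These matches describe letters only, and windows without one say nothing about the factor. The starts used for Zpbp, 11462419, and Dpy19l2, 24696293, lie inside the gene spans given below. Bases before the outer end of the Zpbp span were not searched. The half-site GTTGCC of RFX factors, searched in the same way, was in 1 of the 10 windows, that of Acrbp, and in 10.4% of all windows.

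The acrosome genes were abundant messages. On the TPM scale, the authors' read level per transcript length, which allows genes to be compared with each other, they stood between the 93.2 and the 98.4 percentile of the tested genes. The order over the 6 libraries began with Spata16 at 370.4 ± 9.51 TPM, Spaca1 at 361.6 ± 27.8 and Zpbp2 at 332.7 ± 14.8, went on with Spaca3 at 298.8 ± 8.94, Acrbp at 280.0 ± 71.3 and Spaca7 at 239.5 ± 15.2, and ended with Acrv1 at 196.2 ± 10.2, Dpy19l2 at 165.0 ± 21.8, Spaca4 at 150.0 ± 11.5 and Zpbp at 107.9 ± 9.38 TPM (SD, n = 6). The ranges of neighbours in this order did not overlap between Zpbp2 and Spaca3, Spaca7 and Acrv1, Acrv1 and Dpy19l2, and Spaca4 and Zpbp. The other neighbours overlapped and their order is not settled by these libraries. Acrbp had the widest range of the 10, from 201.9 to 371.5 TPM, and spanned the levels of Spaca1, Zpbp2, Spaca3 and Spaca7.

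**Figure D1:**
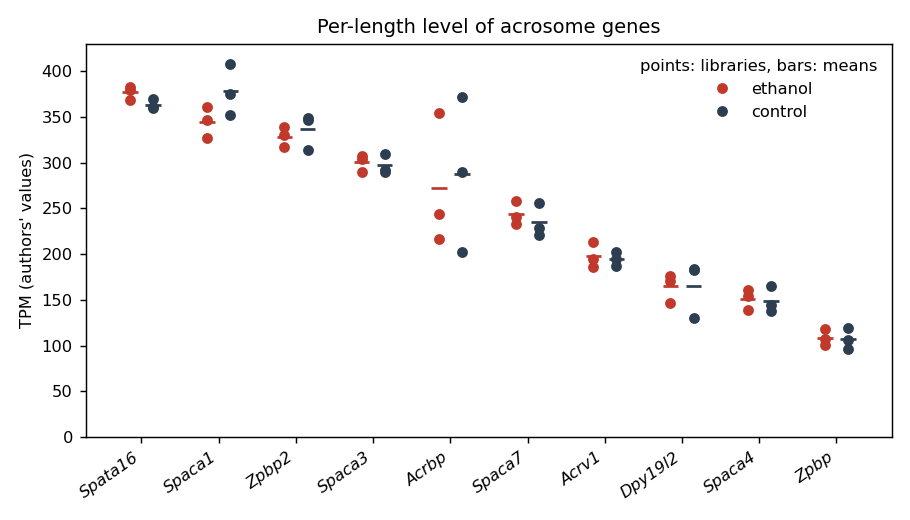
TPM of the 10 acrosome genes in each library (y axis, linear from 0), ordered by mean level on the x axis, with ethanol libraries to the left of control libraries and short bars for the means of 3. The diets overlap for all 10 genes, and Acrbp is the gene whose libraries spread most in both diets.

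Spata16 (Gene ID 70862, chromosome 3, 26637620 to 26983249 on mm10), the Golgi and vesicle gene, was the most even of the set. It was at 371.6, 387.5 and 399.5 CPM, a read share scaled by TMM and not corrected for length, in ethanol libraries 1, 2 and 3, and at 397.9, 362.5 and 401.8 CPM in control libraries 1, 2 and 3. The diets overlapped, with the lowest value in control library 2. The fold change, ethanol over control, was 0.997 with a 95% interval of 0.909 to 1.09 (edgeR adjusted p = 0.985).

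The nuclear anchor gene Dpy19l2 (Gene ID 320752, chromosome 9, 24557047 to 24696457) was at 279.1, 286.3 and 254.8 CPM in the ethanol libraries and 316.3, 299.4 and 240.3 CPM in the control libraries. Control library 3 was the lowest of the 6 and control library 1 the highest, so the ethanol values lay inside the control range. The log2 fold change was -0.06 (SE 0.09, edgeR adjusted p = 0.82) and moved to -0.18 without control library 3. The sperm protein gene Cypt4 lies inside Dpy19l2 on the other strand at 281.1 CPM with ethanol and 282.3 CPM in controls. No source used here gives the strand setting of the counting, and reads of such overlapping genes may not be fully separated. Relatives of Dpy19l2, which code for enzymes that add mannose to proteins or are thought to, did not pass by edgeR. Of 3 genes, Dpy19l1 had a log2 change of -0.08 (SE 0.06), Dpy19l4 0.08 (SE 0.09) and Dpy19l3 0.07 (SE 0.14).

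Spaca1 (Gene ID 67652, chromosome 4, 34024872 to 34050067) had the smallest p of the 10. It was at 196.2, 185.6 and 208.5 CPM in the ethanol libraries and 211.5, 209.7 and 255.7 CPM in the control libraries. All 3 ethanol libraries lay below all 3 controls and control library 3 stood above the rest. The log2 fold change was -0.20 (SE 0.08, 95% interval of the fold 0.770 to 0.988), with an unadjusted p of 0.0339 and an edgeR adjusted p of 0.331, so it did not pass over all genes. Without control library 3 the log2 fold change was -0.10 (edgeR adjusted p = 0.669). On TPM the diets overlapped, at 361.0, 326.7 and 346.5 TPM with ethanol and 351.9, 375.7 and 407.5 TPM in controls.

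Spaca4 (Gene ID 69363, chromosome 7, 45725107 to 45725816), a short gene that lies inside Fam83e on the opposite strand, had the fewest reads. It was at 47.6, 55.8 and 61.5 CPM in the ethanol libraries and 54.9, 49.0 and 65.5 CPM in the control libraries, and the ranges of the diets overlapped. The fold change was 0.974 with a 95% interval of 0.821 to 1.16 (edgeR adjusted p = 0.919). Fam83e was at 102.4 CPM with ethanol and 115.5 CPM in controls.

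The genes of the zona-binding paralogs had similar read levels. Zpbp2 (Gene ID 69376, chromosome 11, 98551097 to 98558665) was at 238.2, 255.5 and 254.5 CPM in the ethanol libraries and 277.0, 259.7 and 261.6 CPM in the control libraries. Its ethanol libraries all lay below its controls. Its log2 fold change was -0.09 (SE 0.06, 95% interval of the fold 0.858 to 1.02, edgeR adjusted p = 0.528). Zpbp (Gene ID 53604, chromosome 11, 11279624 to 11464223) was at 248.3, 252.4 and 235.2 CPM in the ethanol libraries and 261.3, 256.2 and 226.1 CPM in the control libraries, with overlap and a log2 change of -0.02 (SE 0.07, edgeR adjusted p = 0.95).

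Within each library Zpbp stood below Zpbp2 on the per-length scale, with a log2 ratio of TPM of -1.48, -1.66 and -1.66 in the ethanol libraries and -1.71, -1.55 and -1.71 in the control libraries. The mean log2 ratio was -1.60 ± 0.10 with ethanol and -1.66 ± 0.09 in controls (SD, n = 3 each), a difference of 0.06 (exact two-sided permutation test, p = 0.5; with 3 libraries a diet p cannot go below 0.1). As plain reads the paralogs were nearly level, with a log2 ratio of -0.024 with ethanol and -0.10 in controls. The gap on TPM therefore comes with the length correction in the authors' values. The median transcript length in GENCODE M21 is 4248 bases for Zpbp and 1347.5 for Zpbp2. In the authors' table Zpbp has 7 transcripts, 5 of them predicted models, and Zpbp2 has 4, and the part of these models in the gap was not tested. The log2 TPM ratio of the nuclear anchor Dpy19l2 to the membrane gene Spaca1 was -1.03, -0.93 and -1.24 with ethanol and -0.95, -1.03 and -1.65 in controls, a difference of 0.14 (exact two-sided permutation test, p = 0.7) that turned to -0.079 without control library 3.

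Acrbp (Gene ID 54137, chromosome 6, 125049927 to 125063265), the proacrosin partner, varied most. It was at 244.3, 181.7 and 172.5 CPM in the ethanol libraries and 226.7, 263.7 and 167.2 CPM in the control libraries. Each diet held both high and low libraries: ethanol library 1 and control libraries 1 and 2 were high, and ethanol libraries 2 and 3 and control library 3 were low, with 1.58-fold between the highest and the lowest of the 6. The log2 fold change was -0.14 (SE 0.16, edgeR adjusted p = 0.756). It moved to -0.31 without ethanol library 1 and to 0.017 without control library 2. A noncoding transcript, Gm44597, overlaps the start of Acrbp on the same strand, so that reads there could belong to either.

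The remaining genes of the matrix overlapped between the diets. The lysozyme-like gene Spaca3 (chromosome 11, 80858363 to 80867814) was at 122.4, 121.7 and 135.3 CPM with ethanol and 127.6, 120.1 and 141.5 CPM in controls, and its log2 fold change was -0.04 (SE 0.07). Acrv1 (chromosome 9, 36693220 to 36698845) was at 103.9, 119.6 and 110.3 CPM with ethanol and 110.5, 107.0 and 124.0 CPM in controls, with a log2 change of -0.03 (SE 0.08). Control library 3 was the highest of the 6 for both genes. Spaca7 (chromosome 8, 12573036 to 12600739) was at 96.9, 91.8 and 100.7 CPM with ethanol and 95.1, 85.4 and 110.9 CPM in controls, with a log2 change of -0.0097 (SE 0.09). The edgeR adjusted p-values of these genes were 0.876, 0.89 and 0.977.

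**Figure D2:**
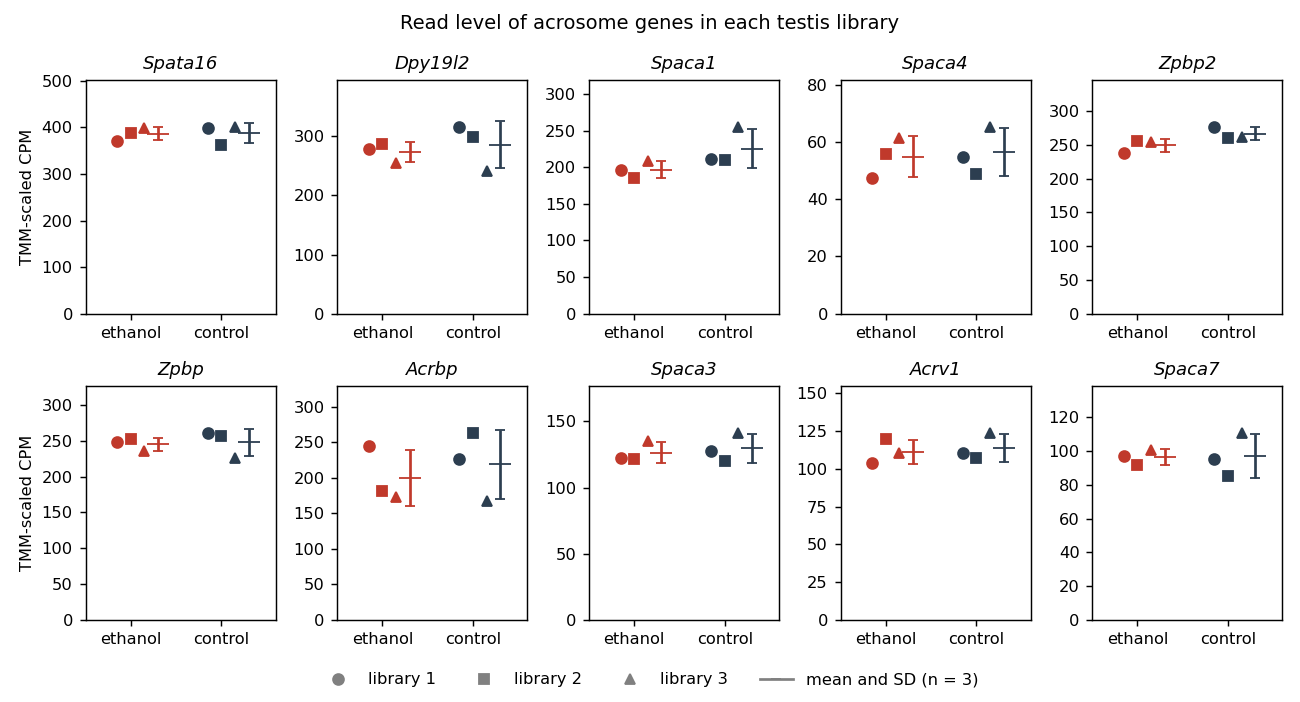
TMM-scaled CPM (y axes, linear from 0, a scale of its own for each gene) of the 10 acrosome genes in 3 ethanol and 3 control libraries, with marker shapes for the library number and a bar with whiskers for mean and SD of 3. Spaca1 and Zpbp2 are the genes whose ethanol libraries all lie below the controls, and Acrbp has high and low libraries in both diets.

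Read as a set, the 10 genes leaned slightly to the lower side on the read scale, and the lean depended on the scaling. All 10 log2 fold changes were below 0 after TMM scaling, with a median of -0.04, where 48.5% of all tested genes were below 0, but only 3 were below 0 on log2(TPM + 1), and 7 when libraries were scaled by total counts or by the summed round spermatid markers. With 1 library left out the number was 5 to 9, and the 5 came without control library 3. The median over all 25073 tested genes was 0.0065, and over the 4404 with a mean of at least 50 CPM it was -0.029, near that of the acrosome genes. On log2(TPM + 1) the median was 0.018 for the 10 genes and 0.044 for all genes. Ethanol libraries lay wholly below controls for 2 of the 10 genes, where 9.01% of all tested genes did so, and wholly above for 0, where 9.76% did so. On TPM 0 of the 10 genes did so in either direction, against 4.41% of tested genes lower and 11.7% higher.

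**Figure D3:**
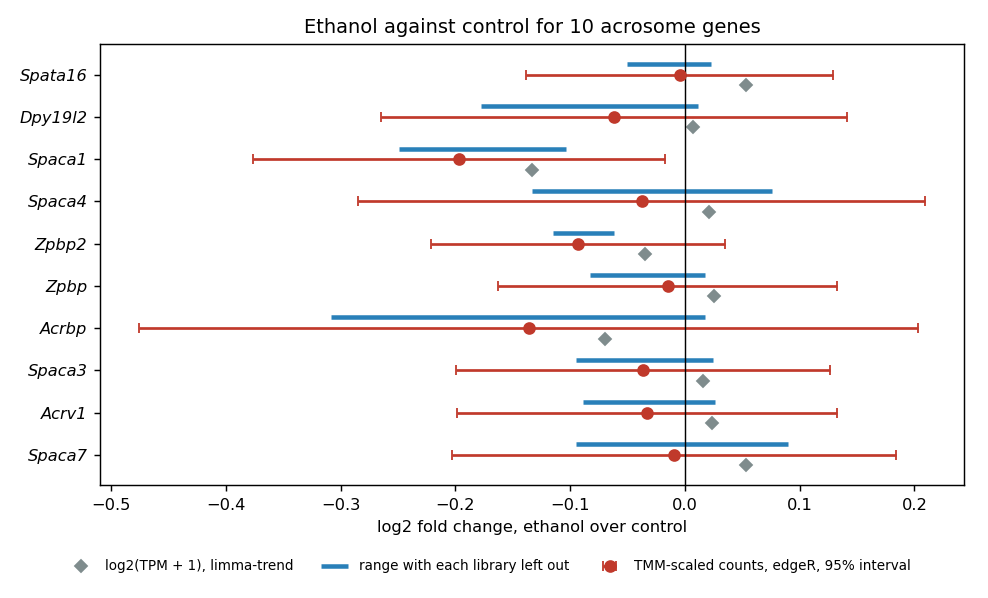
Log2 fold change, ethanol over control (x axis), of the 10 acrosome genes (rows), with red points and 95% intervals from TMM-scaled counts, grey diamonds from log2(TPM + 1) and blue lines for the range when each library is left out in turn. The Spaca1 interval is the only one of the 10 red intervals that does not reach 0, and no grey diamond is past 0.054 on the higher side.

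The 10 genes made up 0.199, 0.195 and 0.193% of the counts in the ethanol libraries and 0.205, 0.202 and 0.195% in the control libraries. Their summed TMM-scaled CPM was 1949, 1938 and 1933 with ethanol and 2079, 2013 and 1995 in controls, each ethanol library below each control. Their summed TPM was 2622, 2458 and 2387 with ethanol and 2497, 2606 and 2442 in controls, which overlap. In a whole organ, fewer spermatids and less message per spermatid cannot be told apart. Marker lists for germ cell stages give the setting of these sums. Round spermatid markers summed to 7115 to 7549 CPM with ethanol and 7059 to 7712 CPM in controls, elongating spermatid markers to 18848 to 22043 and 18748 to 21395 CPM, and spermatocyte markers to 2794 to 3006 and 3024 to 3138 CPM. Of these lists, 14 of 20, 7 of 15 and 14 of 16 genes had a log2 fold change below 0, where 48.5% of all tested genes did. In each list 0 passed by edgeR. At an unadjusted p under 0.05, 3, 0 and 4 genes were lower, where 5.89% of all tested genes were, and 0 were higher, where 7.45% were. Ethanol libraries lay wholly below controls for 4, 1 and 8 genes, where 9.01% of all tested genes did so. They lay wholly above for 0, 1 and 0, where 9.76% did so. Set against the round spermatid sum of the same library, the median log2 fold change of the acrosome genes was -0.0091.

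Summed marker messages of cells outside the germ line also differed in level between the libraries, with 0 genes of the Sertoli, blood and adipose lists passing by edgeR and 10 of 15, 5 of 5 and 4 of 6 higher at an unadjusted p under 0.05, where 7.45% of all tested genes were. Sertoli cell markers were above 0 for 14 of 15 genes and summed to 1487 to 1677 CPM with ethanol and 1283 to 1373 CPM in controls. Blood markers, above 0 for 5 of 5, summed to 56.6 to 69.1 CPM with ethanol and 28.4 to 44.4 CPM in controls. Adipose markers, above 0 for 6 of 6, reached 40.2 CPM in ethanol library 1, against 16.7 and 18.2 CPM in ethanol libraries 3 and 2 and 10.8 to 18.5 CPM in controls. The 4 adipose markers with an unadjusted p under 0.05 were low, averaging 0.23 to 0.73 CPM in controls. Ethanol libraries lay wholly above controls for 9 of 15 Sertoli, 5 of 5 blood and 0 of 6 adipose markers, where 9.76% of all tested genes did so. No marker of these 3 lists was at 0 in every library. Their part in the differences of the acrosome genes was not tested. Without ethanol library 1, the library with the highest adipose sum, the median log2 fold change of the 10 genes was -0.0189, with 7 of 10 below 0. Spaca1 was then at -0.20 and Acrbp at -0.31, while Acrv1 was at 0.0138, Spaca4 at 0.0556 and Spata16 at 0.0223. Markers of the epididymis, the duct beside the testis, were too low to be tested for 7 of 9 genes, and 1 was at 0 in every library.

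Across the 6 libraries the acrosome genes did not move as a single block. Zpbp and Dpy19l2 ran in parallel, both highest in control library 1 and lowest in control library 3 (Pearson r = 0.991, exact permutation p = 0.00139, Benjamini-Hochberg adjusted p = 0.0625 over 45 pairs; Spearman rho = 1, exact permutation p = 0.00278, adjusted p = 0.125; n = 6). Without the 2 libraries farthest from the median of Zpbp, r was 0.992. Spaca3, Spaca4, Spaca7 and Spata16 were, in contrast, highest in control library 3, as were Spaca1 and Acrv1, and Spaca4 and Acrbp ran in opposite directions (r = -0.92, exact permutation p = 0.00694, adjusted p = 0.104; rho = -0.943, adjusted p = 0.15; r = -0.913 without 2 libraries). Of the 45 pairs, 0 passed after adjustment and 9 had an unadjusted Pearson p under 0.05. Each diet has 3 libraries, too few to test a relation within it.

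Zpbp and Dpy19l2 have the longest transcripts and the lowest GC content of the 10 genes in GENCODE M21, with median lengths of 4248 and 3442 bases and 40.3 and 41.7% GC, against 695 to 2183 bases and 43.9 to 60.1% in the others. The libraries differed in how reads were spread over length: per doubling of transcript length, log2 CPM moved by 0.027, 0.0076 and -0.014 in the ethanol libraries and by -0.018, 0.021 and -0.024 in the control libraries, over 11669 genes. Per 10% of GC content it moved by 0.0057, -0.072 and 0.012 in the ethanol libraries and by -0.0080, 0.040 and 0.022 in the control libraries. Zpbp and Dpy19l2 were lowest in control library 3, which had the lowest length slope, and highest in control library 1, which had the next lowest. The part of length and GC content in these parallel values was not tested. With offsets for both, 0 of the 10 genes passed by edgeR and 9 were below 0.

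**Figure D4:**
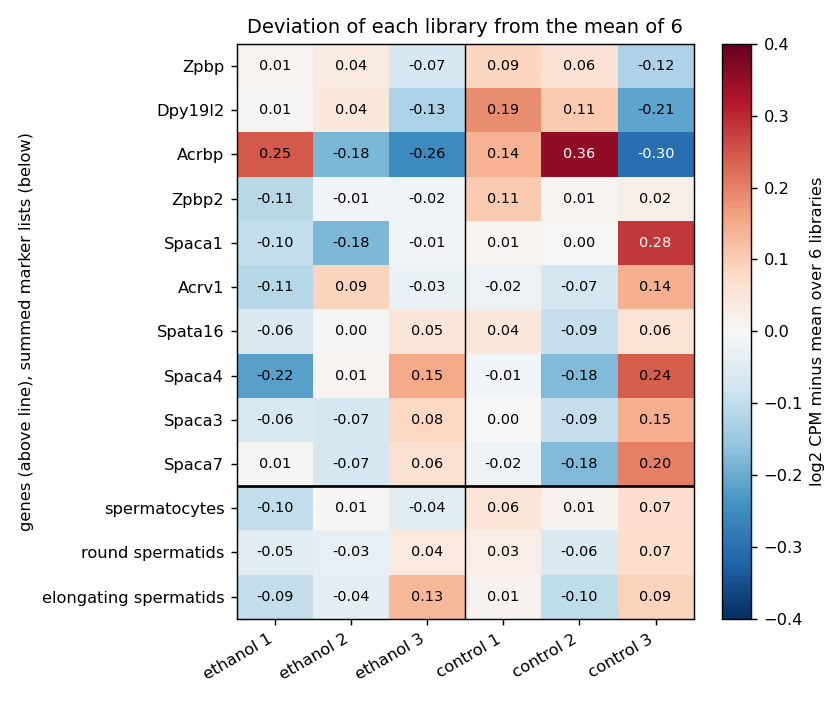
Log2 CPM of each acrosome gene minus its mean over the 6 libraries (colour and numbers), with ethanol libraries left of control libraries, and below the line the same for the summed markers of 3 germ cell stages. Acrbp, Zpbp and Dpy19l2 are below their mean in ethanol library 3 and control library 3, where Spaca3, Spaca4, Spaca7 and Spata16 are above theirs.

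The genes whose levels over the 6 libraries were most like the mean standardized profile of the 10 were Tsnaxip1 (Pearson r = 0.996), Ip6k2 (0.994), Fam24b (0.993), Pes1 (0.988) and Exoc8 (0.987). Of 11048 genes compared over only 6 libraries, 337 had an r above 0.9. The mean profile was highest in control library 3, at 0.491, where Zpbp, Dpy19l2 and Acrbp were lowest. It therefore does not describe these members. Tsnaxip1 averaged 347.2 CPM with ethanol and 375.9 CPM in controls.

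By edgeR, no other acrosome gene of the lists examined passed. Of 19 further genes of acrosomal contents and membranes, 16 had a log2 fold change below 0, against 48.5% of all tested genes, with a median of -0.08, and 0 passed by edgeR. At an unadjusted p under 0.05 were 5, all lower, where 5.89% of all tested genes were lower at that level. Pcsk4, a proprotein convertase of the acrosome, averaged 72.9 ± 12.2 CPM with ethanol and 91.9 ± 9.87 CPM in controls (SD, n = 3 each), a log2 change of -0.33 (SE 0.11, edgeR adjusted p = 0.238). Zp3r, a zona-binding protein of the matrix, averaged 149.3 ± 2.33 CPM with ethanol and 168.1 ± 7.06 CPM in controls (edgeR adjusted p = 0.243). The hyaluronidase gene Spam1 averaged 93.4 ± 4.62 CPM with ethanol and 105.8 ± 5.05 CPM in controls (edgeR adjusted p = 0.273), and the egg-binding gene Izumo1 93.7 ± 7.08 and 106.9 ± 8.92 CPM (edgeR adjusted p = 0.327). Ethanol libraries lay wholly below controls for 2 of the 19 genes, Zp3r and Spam1, where 9.01% of all tested genes did so.

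Genes of Golgi traffic in acrosome formation were split, with 10 of 20 below 0, where 48.5% of all tested genes were. The median was -8e-04 and 0 genes passed by edgeR. At an unadjusted p under 0.05, 1 was higher and 0 were lower, against 7.45% and 5.89% of all tested genes. Wholly below controls in the ethanol libraries were 2 of the 20, and wholly above were 2, against 9.01% and 9.76% of all tested genes. Vps54, a subunit of a complex that returns vesicles to the Golgi, averaged 37.8 ± 1.53 CPM with ethanol and 33.9 ± 0.233 CPM in controls (edgeR adjusted p = 0.341). The palmitoyltransferase gene Zdhhc19 averaged 47.7 ± 0.336 and 52.3 ± 2.55 CPM, and the golgin gene Golga3 211.5 ± 7.16 and 197.6 ± 5.45 CPM. Of 22 genes of attachment and head shaping, 15 were below 0 with a median of -0.04, and 0 passed by edgeR, with 2 lower at an unadjusted p under 0.05, against 48.5% and 5.89% of all tested genes. The actin-related gene Actl7b averaged 501.7 ± 40.5 CPM with ethanol and 569.2 ± 36.7 CPM in controls, and Rimbp3, whose protein sits on the manchette that shapes the sperm head, 526.8 ± 36.5 and 584.0 ± 21.8 CPM. Sun5, which links the head to the tail, averaged 63.2 ± 0.376 and 69.0 ± 3.25 CPM. Ethanol libraries lay wholly below controls for 4 of the 22 genes, these 3 and Iqcg, which is named after its values were seen, where 9.01% of all tested genes did so.

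Among 13 regulators of haploid germ cell genes, 10 were below 0 with a median of -0.07, where 48.5% of all tested genes were below 0. By edgeR 0 passed, and 2 were lower at an unadjusted p under 0.05, where 5.89% of all tested genes were. Wholly below controls in the ethanol libraries were 4 of the 13, and wholly above were 0, against 9.01% and 9.76% of all tested genes. The list summed to 3063 to 3301 CPM with ethanol and 3357.5 to 3517 CPM in controls. Ybx2, which binds stored messages, averaged 393.6 ± 35.5 CPM with ethanol and 480.3 ± 22.4 CPM in controls, a log2 change of -0.29 (SE 0.07, edgeR adjusted p = 0.156). The kinesin gene Kif17, whose protein moves a partner of CREM in spermatids, had a log2 change of -0.24 (SE 0.08), and the helix-loop-helix factor gene Tcfl5 -0.12 (SE 0.06). Crem, which encodes CREM and is named after its values were seen, averaged 206.4 ± 4.48 CPM with ethanol and 216.1 ± 8.38 CPM in controls (SD, n = 3 each), a log2 change of -0.07 (SE 0.06, edgeR adjusted p = 0.669).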

How the data were processed

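Total RNA libraries of mouse testis were sequenced. Per the file headers, the authors deposited read counts, FPKM and TPM per gene in 1 table. Per the submitters' processing notes the tools include HISAT2 and the build is mm10; the counter, and its strand setting, are named in no source used here. FPKM was not used. Read counts were scaled by TMM, filtered with filterByExpr and tested across 25073 of 45777 genes with edgeR 4.0.16 (quasi-likelihood, Benjamini-Hochberg adjustment, threshold 0.05; R 4.3.3). Deposited TPM served to compare genes, and limma 3.58.1 on log2(TPM + 1) and DESeq2 1.42.0 were alternatives. The script was tested on simulated data. The lowest chi-square per gene between any pair of libraries was 7.66, so none was a duplicate. The 10 genes and the gene lists were chosen with earlier results of these data known. Named were the 10 genes and the 5 genes with the profile most like that of the 10. From each list described, up to 3 genes of smallest p and up to 2 of largest change were also named. For cell markers only list values are given, save for Dazl. Alternatives were other scalings, filters, pseudocounts, a threshold of 0.1, a replicate block, leaving out each library and, chosen after seeing the data, GC and length offsets.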

Additional observations from a re-analysis of the deposited data

How the results depend on the processing

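In the alternatives run, 0 of the 10 genes passed. Spaca1 and Zpbp2 were below 0 in all 17 alternatives, with log2 fold changes of -0.249 to -0.104 and -0.115 to -0.0345. Of the values of single genes in these alternatives, 36 turned direction and 134 did not. The cause was not tested. With total counts Spaca7 was 0.0171, Zpbp 0.0102 and Spata16 0.0214, and the median of the 10 was -0.0113. With round spermatid scaling they were 0.0206, 0.0099 and 0.0229, and the median was -0.0091. On log2(TPM + 1), 3 genes were below 0 and the median was 0.0181, with Acrv1 0.0232, Spaca3 0.0155, Spaca4 0.0206, Spaca7 0.0535, Zpbp 0.0252, Dpy19l2 0.0068 and Spata16 0.0534. On log2(TPM + 0.1), 3 were below 0 and the median was 0.0181, with the same genes at 0.0233, 0.0156, 0.0207, 0.0537, 0.0255, 0.0069 and 0.0535. With GC and length offsets Spaca4 was 0.0548.

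Genes called over all genes were 0 higher and 0 lower by edgeR, 2 higher with upper quartile scaling, 2 higher with the 1 CPM filter, 203 higher and 127 lower by DESeq2, 2 higher and 1 lower with offsets, and 4 higher and 1 lower at a threshold of 0.1. Leaving out each library gave 0 to 1 higher and 0 to 2 lower, 5 to 9 of the 10 genes below 0, and a median of -0.0833 to -0.0189. The ranges were -0.308 to 0.0173 for Acrbp, -0.0886 to 0.0265 for Acrv1, -0.178 to 0.0115 for Dpy19l2, -0.0953 to 0.0242 for Spaca3, -0.133 to 0.0761 for Spaca4, -0.0949 to 0.09 for Spaca7, -0.0509 to 0.0223 for Spata16 and -0.0831 to 0.0174 for Zpbp. The difference in the log2 ratio of Dpy19l2 to Spaca1 ranged from -0.0789 to 0.271, and that of Zpbp to Zpbp2 from 0.000675 to 0.114.

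With the replicate number as a block, 5 genes were called higher and 10 lower over all genes, and 0 of the 10. Deviations of libraries with the same number correlated at -0.166, 0.0135 and 0.439, so the numbers were not taken to pair the samples, and not every library correlated best with its own number. With 3 libraries per diet and a biological coefficient of variation of 0.102, differences the size of most seen here could not be separated from the spread.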

Other observations

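Other cell types of the testis give the setting of these values. Of 8 Leydig cell markers, 5 had a log2 fold change below 0, and they summed to 553.6 to 696.9 CPM with ethanol and 646.8 to 678.2 CPM in controls. Single Leydig markers moved in both directions, with 3 of the 8 lower and 1 higher at an unadjusted p under 0.05. Peritubular myoid markers were above 0 for 6 of 6 genes and summed to 128.9 to 138.2 CPM with ethanol and 118.7 to 122.2 CPM in controls. Macrophage markers were above 0 for 6 of 7 genes, with sums of 103.4 to 111.0 and 89.6 to 96.6 CPM. Endothelial markers were above 0 for 5 of 6 genes, with sums of 43.9 to 52.3 and 42.0 to 46.4 CPM. Of 14 spermatogonial markers 11 were above 0, with sums of 294.5 to 317.2 and 303.2 to 317.2 CPM. At an unadjusted p under 0.05 1 was lower and 0 were higher. Much of these sums came from Dazl, named after its values were seen. It averaged 159.0 CPM with ethanol and 165.7 CPM in controls, a log2 change of -0.06. By edgeR 0 genes of these lists passed. At an unadjusted p under 0.05, 1 myoid, 1 macrophage and 1 endothelial marker were higher and 1 macrophage marker was lower. Of all tested genes 48.5% were below 0, and at that level of p 7.45% were higher and 5.89% lower.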
